A study of Homo sapiens with 12 samples.

Results

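Untreated THP-1 cells were described from 3 RNA-seq libraries, the untreated control replicates 1, 2 and 3, out of 12 libraries in the series. THP-1 is an established human cell line from an acute monocytic leukemia, which grows in suspension and can be driven towards macrophage-like cells. The series as a whole compares such cells with cells given 3'-3'-cGAMP or chlorquinaldol, and none of those treated libraries was used here. The members are therefore the 3 untreated libraries, chosen by their label, and every one of the 62914 gene entries was examined in them. The culture medium, the passage, any vehicle and whether the replicates were separate cultures are not given in the sources used here, so spreads between libraries may be technical.

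Levels are FPKM (fragments per kilobase of transcript and 1000000 mapped fragments), the authors' deposited values, which are scaled for gene length and library size and so allow genes to be compared within these cells. A value written with ± is the mean and SD of the 3 libraries. A gene was called expressed at 1 FPKM or more in each of the 3 libraries, silent at a mean under 0.1 FPKM, and trace in between. There is 1 condition only, so nothing was tested, and counts of list members are set beside the share of all protein-coding genes. A silent call is limited by depth: libraries held 18910085, 18931326 and 19023005 estimated counts, and 3 counts on a transcript of 1 kilobase would give 0.159, 0.158 and 0.158 FPKM in replicates 1, 2 and 3. In cultured cells read in bulk, RNA present in few cells and a low level in every cell cannot be told apart.

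Monocytes are phagocytes of the blood that arise from granulocyte-monocyte progenitors under the control of PU.1, C/EBP and IRF8, and they sense microbes through Toll-like receptors, cytosolic nucleic acid sensors and inflammasomes. Acute myeloid leukemias with a rearranged KMT2A gene are known for a sustained programme of HOXA genes, MEIS1 and MEF2C. THP-1 is known to carry a fusion of KMT2A with MLLT3, which a table of gene totals does not show.

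Of 19785 protein-coding genes, 11054 were expressed, 2765 were trace and 5966 were silent. These are 55.9% of protein-coding genes expressed and 30.2% silent, the 2 shares against which each list below is read. Counts were 0 in all 3 libraries for 3510 protein-coding genes. Non-coding classes were expressed far less often: 366 of 7449 long intergenic RNAs, 452 of 5517 antisense RNAs and 144 of 10166 processed pseudogenes passed 1 FPKM in each library. The median protein-coding gene stood at 2.76 FPKM. By mean level, 4700 protein-coding genes lay between 1 and 10 FPKM, 5705 between 10 and 100, 797 between 100 and 1000, and 127 at 1000 or more. These 127 genes held 49.99% of all FPKM. The 5966 silent genes together held 0.0102%.

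The 10 highest genes took 14.1%, 13.8% and 12.5% of summed FPKM in replicates 1, 2 and 3, and the 100 highest took 46.6%, 48.1% and 47.5%. Cytosolic ribosomal proteins, the protein part of the ribosome, made up 24.4%, 26.1% and 27.1%. Mitochondrially encoded genes made up 13.7%, 13.4% and 11.4%. Replicate 1 thus had the lowest ribosomal share and replicate 3 the lowest mitochondrial share. Measured in counts, which are not scaled for length, ribosomal proteins averaged 9.31% ± 0.638 and mitochondrial genes 5.86% ± 0.366. Most of these transcripts are short.

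**Figure D1:**
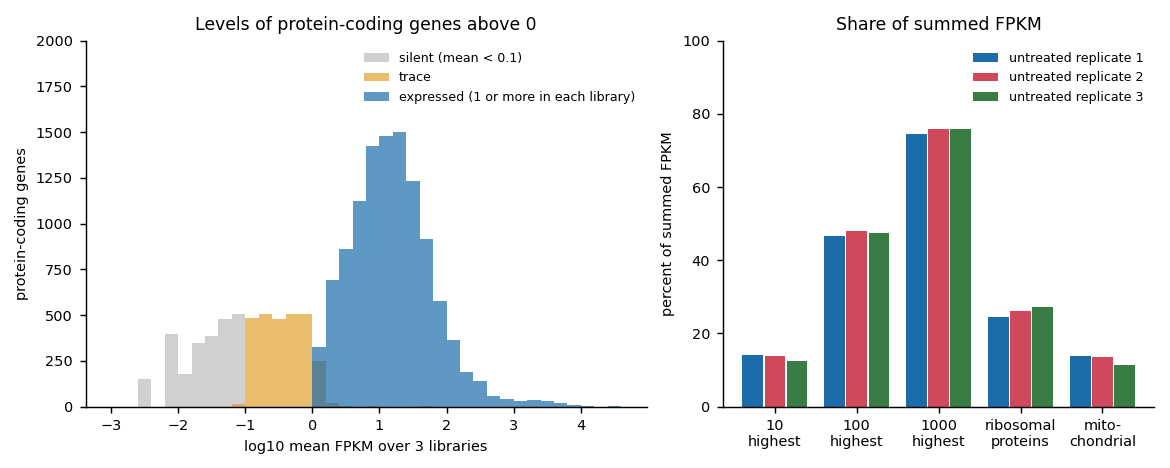
Left, number of protein-coding genes by log10 mean FPKM over the 3 untreated libraries, coloured by class with the classes overlaid; genes at 0 are not drawn. Right, percent of summed FPKM held by the 10, 100 and 1000 highest genes, by cytosolic ribosomal proteins and by mitochondrially encoded genes, with 1 bar for each library. The 11054 expressed genes form a broad peak near 10 FPKM, and the 100 highest genes hold 46.6% to 48.1% of the total.

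The first place went to MT-ATP8, a small subunit of the mitochondrial ATP synthase, at 26989, 30273 and 22156 FPKM in replicates 1, 2 and 3. Its counts, 12741, 15914 and 10792, imply an effective length of only 26.1 bases, so this FPKM rests on a length correction that is extreme for so short a transcript. EEF1A1, the elongation factor that brings aminoacyl-tRNA to the ribosome, was the highest nuclear gene at 12230.0, 13077 and 13544 FPKM. TMSB4X, which binds actin monomers, had 10028, 10191 and 11648 FPKM. Among the 20 highest entries, 8 were mitochondrial (MT-ATP8, MT-ND4L, MT-CO3, MT-CO1, MT-CO2, MT-ND3, MT-ATP6 and MT-RNR2) and 6 encoded ribosomal proteins, among them RPS27, RPS18, RPL41, RPS25 and RPS23.

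Leaving out ribosomal proteins, the 10 highest nuclear protein-coding genes began with EEF1A1 and TMSB4X. Next came PTMA, a small acidic nuclear protein (7440.5 ± 767 FPKM), and FTL, the light chain of the iron store ferritin (7084 ± 511 FPKM). CAP1, a regulator of actin turnover, followed at 6506, 6044 and 6603 FPKM, and ACTB, cytoplasmic actin, at 5955 ± 278 FPKM. The others were the RNA-binding protein YBX1 (5426 ± 240.4 FPKM), the growth-linked protein TPT1 (4099 ± 273 FPKM), the prolyl isomerase PPIA (3304 ± 96.8 FPKM) and CA2, carbonic anhydrase 2 (2632 ± 221 FPKM). The replicate ranges of PTMA, FTL and CAP1 overlapped, so the order of these 3 is not firm. The range of CAP1 also overlapped with that of ACTB, which was higher in replicate 2 (6158 against 6044 FPKM). Several genes of this rank have processed copies elsewhere in the genome that can share their reads.

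Transcripts of the translation machinery are known to begin with a terminal oligopyrimidine tract, a C at the first base followed by pyrimidines. At the first RefSeq start listed for each gene, C followed by 4 pyrimidines (C or T, read on the gene's own strand only) occurred in 45 of 71 matched ribosomal protein genes, or 63.4%. The share over all 15262 matched protein-coding genes was 4.66%. By level it was 2.70% in genes under 0.1 FPKM, 3.98% from 0.1 to 1, 4.22% from 1 to 10, 5.29% from 10 to 100 and 15.5% at 100 FPKM or more. In the 692 genes of that highest band that are not ribosomal proteins it was 10.6%. Starts used in these cells were not measured, so the match describes the annotation. The windows below run from 30 bases before the start to 15 bases after it, from RefSeq on GRCh38.p14, and show the highest genes with such a start next to 3 of the highest without one. Capitals mark the unbroken pyrimidine run from the first base.
EEF1A1: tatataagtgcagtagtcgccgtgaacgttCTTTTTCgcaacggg
RPS27: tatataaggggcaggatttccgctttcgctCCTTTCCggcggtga
PTMA: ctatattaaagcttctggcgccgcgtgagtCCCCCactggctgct
RPS18: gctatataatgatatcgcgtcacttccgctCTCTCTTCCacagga
RPL41: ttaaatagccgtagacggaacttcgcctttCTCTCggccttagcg
TMSB4X: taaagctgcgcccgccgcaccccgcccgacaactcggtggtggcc
FTL: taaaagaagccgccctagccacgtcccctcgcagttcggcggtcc
CAP1: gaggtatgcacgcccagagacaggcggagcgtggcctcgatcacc
EEF1A1 lies at chr6:73521018-73521062, minus strand. RPS27 lies at chr1:153990732-153990776, plus strand. PTMA lies at chr2:231708495-231708539, plus strand. RPS18 lies at chr6:33272045-33272089, plus strand. RPL41 lies at chr12:56116603-56116647, plus strand. TMSB4X lies at chrX:12975080-12975124, plus strand. FTL lies at chr19:48965279-48965323, plus strand. CAP1 lies at chr1:40040210-40040254, plus strand.

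Promoter composition also varied with level. From 250 bases before the start to 50 after it, median GC content was 54.7% in genes under 0.1 FPKM, 62.3% from 0.1 to 1, 65.3% from 1 to 10, 65.7% from 10 to 100 and 63.3% at 100 FPKM or more. The median number of CpG dinucleotides in the same order was 7, 18, 26, 27 and 25. The letters TATAAA, searched on the gene's strand between 36 and 21 bases before the start, were found in 8.03% of genes under 0.1 FPKM, 3.86% from 0.1 to 1, 1.59% from 1 to 10, 0.885% from 10 to 100 and 4.89% at 100 or more, against 3.59% of all. CpG content was thus lowest among silent genes, while the TATAAA share was high at both ends of the scale.

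Monocyte markers were among the higher genes, and the label of a monocytic line was checked on them. Of 34 surface proteins of monocytes and macrophages, 29 were expressed, with a list median of 20.3 FPKM against 2.76 FPKM over all protein-coding genes. FCER1G, the common signalling chain of Fc receptors, had 1021, 1012 and 1084 FPKM. ITGB2, the beta chain of leukocyte integrins, had 491, 473 and 479 FPKM, and the adaptor TYROBP 241, 274 and 295 FPKM. FCGR1A, the high-affinity IgG receptor, averaged 178 ± 15.6 FPKM and the lysosomal protein CD68 140.4 ± 7.81 FPKM.

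The defining receptors spread over a wide range. CD4 averaged 105 ± 1.5 FPKM, CD33 51.2 ± 2.02, the chemokine receptor CCR2 50.5 ± 2.15, and CSF1R, the receptor for M-CSF, 35.7 ± 1.56. CD14, the co-receptor for lipopolysaccharide, had 19.5, 15.4 and 17 FPKM, and ITGAM, the alpha chain of Mac-1, 15.9, 18.9 and 15.5 FPKM. CD14 and ITGAM therefore did not differ beyond their spread. Lower in the list, CD163, a haemoglobin scavenger receptor, averaged 3.24 ± 0.391 FPKM, the costimulator CD86 0.94 ± 0.29 FPKM, and the mannose receptor MRC1 0.05 ± 0.01 FPKM from 15 estimated counts in all, and CD300E, an activating receptor of monocytes, was silent at 0.0833 ± 0.0493 FPKM.

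Secreted and cytosolic monocyte proteins were expressed in 22 of 24 members, with a median of 137 FPKM. CHI3L1, a chitinase-like glycoprotein, was highest at 999, 997 and 996 FPKM. S100A9 and S100A8, which pair to form calprotectin, averaged 640.1 ± 25.2 and 392 ± 28.6 FPKM, and lysozyme (LYZ) 400.3 ± 12 FPKM. All 3 libraries gave S100A9 above S100A8. The NADPH oxidase, which makes superoxide, was uneven: its subunit CYBA averaged 517 ± 20.9 FPKM, NCF4 130.1 ± 2.26, NCF1 39.7 ± 2.86 and the catalytic subunit CYBB 22.3 ± 2.99. NCF1 has near-identical pseudogenes, so its value is uncertain. FCN1, a lectin of blood monocytes, was trace at 0.61, 0.39 and 0.32 FPKM, and S100A12 averaged 11.5 ± 1.86 FPKM.

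Granule proteins, which myeloid precursors store for killing microbes, split into a high and a near-silent set. 8 of 17 were expressed, a smaller share than over all protein-coding genes, yet the proteoglycan SRGN that packs granules had 2425, 2208 and 2524 FPKM. AZU1, an antimicrobial protein, had 622, 673 and 693 FPKM, and the serine proteases CTSG, ELANE and PRTN3 averaged 517 ± 38.4, 369.6 ± 32 and 338 ± 27.6 FPKM. MPO, the peroxidase of the same azurophil granules, stood at 1.38, 1.11 and 0.74 FPKM, so replicate 3 fell below 1 and the gene counted as trace. BPI, which binds lipopolysaccharide and is stored in azurophil granules too, was lower still at 0.55 ± 0.173 FPKM. Of proteins of the later granules, CAMP averaged 0.287 ± 0.172 from 8 counts, and LTF, lactoferrin, 0.01 ± 0.0173 from 1 count. DEFA1 had 0 counts in all 3 libraries, though it has near-identical copies that can share reads.

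AZU1, PRTN3 and ELANE are neighbours on chromosome 19, and the next gene, CFD, which encodes complement factor D, averaged 151 ± 12.9 FPKM. This cluster runs from 825097 to 863630 on chromosome 19 (GRCh38, GENCODE 29). The genes on either side were lower in part, with PLPPR3 at 39 ± 3.58, MED16 at 12 ± 0.76 and R3HDM4 at 27.2 ± 0.672 FPKM. Beyond PLPPR3, however, PTBP1 averaged 169 ± 8 FPKM and was not lower than CFD.

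PU.1 is known to bind purine-rich sites that contain GGAA. The letters GAGGAAG, or CTTCCTC for the other strand, occurred within 250 bases before to 50 after the start in 20 of 51 matched genes of the surface, secreted and granule lists, or 39.2%. The share over all matched protein-coding genes was 14.35%, and it was 13.5% under 0.1 FPKM and 17.3% at 100 FPKM or more. It was 29.6% in cytosolic ribosomal proteins (21 of 71), so a share above that of all genes was not limited to the monocyte and granule lists. In the granule list alone it was 5 of 10. AZU1 and RNASE2 had no such match in this window. Below are the 150 bases before the start of the 3 highest genes of these lists with a match there, from RefSeq on GRCh38.p14, with each match in capitals.
CTSG: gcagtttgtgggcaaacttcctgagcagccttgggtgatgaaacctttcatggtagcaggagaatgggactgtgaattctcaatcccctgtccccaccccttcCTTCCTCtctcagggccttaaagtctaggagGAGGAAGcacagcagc
S100A8: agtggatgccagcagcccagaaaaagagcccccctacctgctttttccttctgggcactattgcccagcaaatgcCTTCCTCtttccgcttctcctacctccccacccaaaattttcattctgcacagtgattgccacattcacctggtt
PRTN3: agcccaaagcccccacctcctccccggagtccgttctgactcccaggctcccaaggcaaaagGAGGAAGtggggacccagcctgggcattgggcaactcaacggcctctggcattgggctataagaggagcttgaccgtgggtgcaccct
CTSG lies at chr14:24576251-24576400, minus strand. S100A8 lies at chr1:153391189-153391338, minus strand. PRTN3 lies at chr19:840849-840998, plus strand. A match describes the letters and is no evidence of binding.

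Myeloid transcription factors were expressed in 24 of 30 members. IRF8, which directs progenitors to the monocyte fate, was highest at 431, 422 and 421 FPKM. MYB, a factor of proliferating progenitors, averaged 174 ± 7.5 FPKM, SPI1, which encodes PU.1, 165 ± 3.78, and CEBPA 138 ± 4.36. GFI1, a transcriptional repressor that works in granulocyte development, averaged 119 ± 9.51 FPKM and LMO2 158 ± 4.69. MAF, a factor of differentiated macrophages, was lower at 4.62 ± 0.667 FPKM. Factors used in the erythroid and megakaryocyte lines were mixed: NFE2 and GATA2 were expressed at 5.16 ± 0.599 and 4.9 ± 0.696 FPKM, whereas TAL1, GFI1B and GATA1 were silent, at 0.0767 ± 0.0379, 0.0133 ± 0.0115 and 0.02 ± 0.0346 FPKM.

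Markers of other lineages were mostly silent or trace. T and NK cell markers were expressed in 2 of 21, with a list median of 0.0533 FPKM: the cytotoxic granule protein NKG7 at 15.8 ± 1.38 FPKM and NCAM1 (CD56) at 5.91 ± 0.539. CD3E had 0 counts and CD3D 3 in all. B cell markers were expressed in 2 of 18, among them CD79B at 6.07, 5.4 and 6.5 FPKM. MS4A1 (CD20) had 0 counts, and PAX5, the factor that defines B cells, averaged 0.133 ± 0.0404 FPKM. Erythroid and megakaryocyte markers were expressed in 2 of 22, with the erythropoietin receptor EPOR at 7.98 ± 0.321 FPKM and the transferrin receptor TFR2 at 1.42 ± 0.15, while KLF1, an erythroid factor, had 1 count.

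Of stem and progenitor markers 2 of 15 were expressed: CD38 at 25.2 ± 1.59 FPKM and FLT3, a receptor tyrosine kinase of progenitors, at 19.8 ± 0.442. CD34 was silent at 0.0667 ± 0.0289 FPKM, and PROM1 (CD133) and MECOM had 0 counts. Epithelial markers were expressed in 2 of 15, the junction proteins CLDN7 (7.06 ± 1.12 FPKM) and OCLN (3.5 ± 0.512 FPKM). EPCAM, CDH1 and KRT19, which define epithelium, had 0 counts. Fibroblast and endothelial markers were expressed in 3 of 18, led by PECAM1 (CD31), which monocytes also carry, at 88.4, 80.7 and 86.1 FPKM. TWIST1, a factor of mesenchyme, averaged 11.3 ± 1.14 FPKM and PDGFRB 2.04 ± 0.739 FPKM, whereas the endothelial cadherin CDH5 had 0 counts. Neuronal and hepatocyte markers were expressed in 3 of 15, none above 3.71 FPKM, the mean of SERPINA1, a protease inhibitor that monocytes also make.

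**Figure D2:**
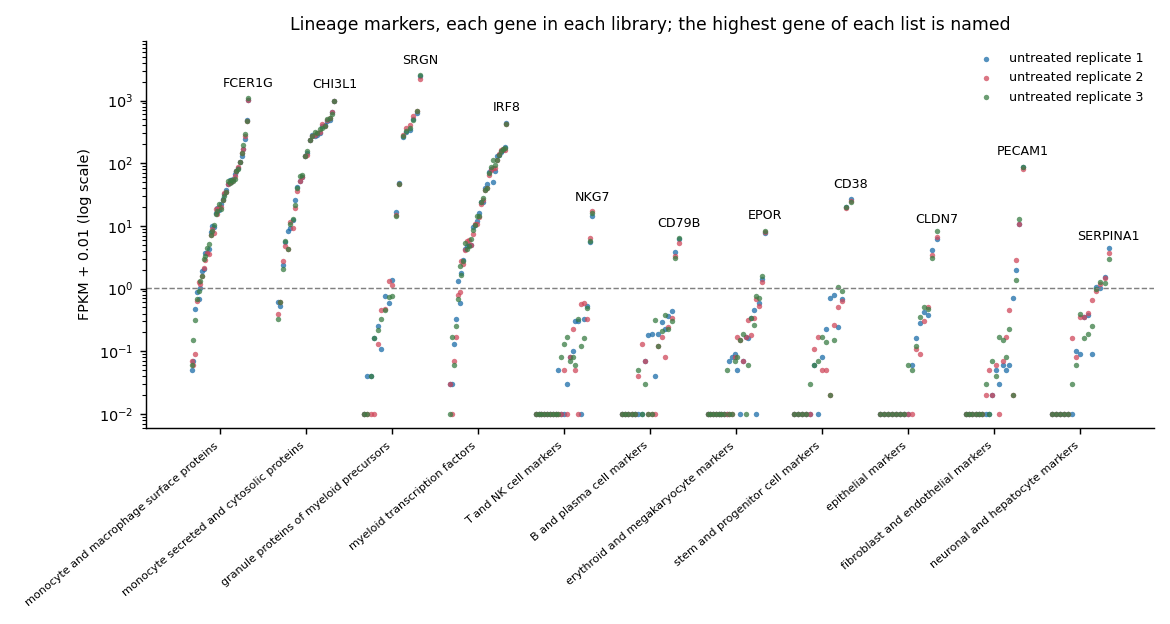
FPKM + 0.01 on a log axis for every member of the 11 lineage lists, genes ordered by mean within a list, with 1 point for each untreated library; the dashed line is 1 FPKM and points at the bottom are at 0. The myeloid lists reach 1039 (FCER1G), 997 (CHI3L1), 2386 (SRGN) and 425 (IRF8) FPKM, while the highest genes of the 7 other lists lie between 3.71 (SERPINA1) and 85.1 (PECAM1).

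The HOXA cluster, whose genes pattern the body axis and maintain immature blood cells, was on mainly at its 5' end. HOXA9 had 59.6, 53.9 and 51.3 FPKM, HOXA10 29.8, 30.5 and 28.7, HOXA11 15.8, 15.2 and 15.8 and HOXA13 13.4, 11.8 and 11.7. The means fell in chromosomal order along these 4 genes, and each library gave the same order. On the other side of the cluster HOXA7 averaged 0.66 ± 0.0436 FPKM, HOXA5 1.63 ± 0.608, HOXA4 1.2 ± 0.428, HOXA3 0.247 ± 0.169 and HOXA2 0.0433 ± 0.0751, and none of these 5 passed 1 FPKM in each library. Of 28 HOXB, HOXC and HOXD genes 3 were expressed, HOXB3 (3.01 ± 0.769 FPKM), HOXC10 (2.39 ± 0.757) and HOXB4 (2.3 ± 0.157), and all 9 listed HOXD genes had 0 counts.

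Of the cofactors of HOX proteins, PBX3 averaged 83.2 ± 6.37 FPKM, whereas MEIS1 had 0.04, 0 and 0.34 FPKM, from 7 counts in all. MEF2C, another gene reported downstream of KMT2A fusions, averaged 48.2 ± 4.11 FPKM. In that list 15 of 17 were expressed, with a median of 33.4 FPKM, among them MYB, LMO2 (158 ± 4.69 FPKM) and MYC (93.7, 83.7 and 79 FPKM). The KMT2A complex and its fusion partners were expressed in all 19 members. KMT2A itself averaged 12.3 ± 0.579 FPKM, its partner MLLT3 8.29 ± 0.925, the scaffold MEN1 12.6 ± 1.16 and the H3K79 methyltransferase DOT1L 23.4 ± 0.832. WDR5, a core subunit shared with other complexes, was highest at 67.7 ± 2.67 FPKM. Reads of a fused transcript are counted under both partner genes and cannot be separated here.

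Tumour suppressors were expressed in 20 of 24, and the 4 others were silent. CDKN2A and CDKN2B, which encode the cell-cycle inhibitors p16 and p15, had 0 counts in every library. MTAP, an enzyme that salvages methionine and lies beside them, had 0.01, 0.01 and 0.01 FPKM from 3.17 counts, and KDM6A, an H3K27 demethylase, 0.04, 0.04 and 0.02 FPKM from 21.1 counts. CDKN2C, which encodes the related inhibitor p18, was the highest of the list at 153, 165 and 163 FPKM. RB1 averaged 21.2 ± 1.66 FPKM and NF1 14.6 ± 1.13.

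Of leukemia oncogenes and growth genes 23 of 27 were expressed, led by NPM1 at 975 ± 20.1 FPKM. NRAS averaged 39.6 ± 1.44 FPKM. The D cyclins were unequal, CCND3 averaging 68.3 ± 6.45 FPKM, CCND1 2.39 ± 0.152 and CCND2 0.0633 ± 0.0231. TERT, the catalytic part of telomerase, was expressed at 2.19, 2.05 and 3.02 FPKM. All 31 genes of DNA replication and mitosis were expressed, with a median of 59.7 FPKM and CDC20, the activator of the anaphase-promoting complex, highest at 400.4 ± 11.5. In the BCL2 family 14 of 16 were expressed: the survival protein MCL1 averaged 158 ± 11.9 FPKM, against 17.3 ± 0.865 for BCL2 and 12.6 ± 0.489 for BCL2L1, and the executioners BAX and BAK1 93.5 ± 5.48 and 40.4 ± 0.857.

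The CDKN2A region was part of a longer silent stretch. On chromosome 9, 22 consecutive protein-coding genes from IFNB1 to DMRTA1 (21077105 to 22455740, GRCh38, GENCODE 29) were silent, 19 of them with 0 counts in all libraries and 15.2 counts between them. The stretch holds type I interferon genes, which are normally off at rest. KLHL9, an ubiquitin ligase adaptor in the same stretch, had 0 counts. Of the flanking genes, MLLT3 averaged 8.29 ± 0.925 FPKM, FOCAD 10 ± 0.321 and HACD4 7.52 ± 0.0709 on one side. On the other ELAVL2 was trace at 0.747 ± 0.0833, IZUMO3 had 0 counts and TUSC1 averaged 11.5 ± 0.769. A second such stretch lay on chromosome X, 9 consecutive genes from PPP1R2C to DIPK2B (42777368 to 45200901), 7 of them at 0 counts, among them the monoamine oxidases MAOA and MAOB and the mitophagy receptor FUNDC1. KDM6A lies in it. The next gene, KRBOX4, averaged 7.68 ± 0.49 FPKM. Beyond it ZNF674 and CHST7 were trace at 1.01 ± 0.345 and 0.463 ± 0.112 FPKM, followed by SLC9A7 at 1.59 ± 0.351 and RP2 at 14.6 ± 1.81. Silent stretches of 8 or more genes numbered 72. By length the chromosome 9 stretch ranked 12 and the chromosome X stretch 52, with ties in arbitrary order. The longest 4 held olfactory receptors (55 genes, chromosome 11), epidermal genes (45, chromosome 1), keratins (39, chromosome 17) and defensins (39, chromosome 8). Gene copy number was not measured here.

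The opposite case was found on chromosome 1. Among all 19381 windows of 15 consecutive protein-coding genes, the highest median level, 184 FPKM, was that of CAP1 to CITED4 (40040233 to 40862366), against 3.34 FPKM for the median window. Next came a window from JTB to UBE2Q1, also on chromosome 1, at 88.7 FPKM. In the CAP1 window 9 of 15 genes exceeded 100 FPKM, and the 15 took 2.55% of all estimated counts. Beside CAP1, PPT1, a lysosomal thioesterase, had 2309, 2276 and 2277 FPKM and SMAP2, an ARF GTPase-activating protein, 1227, 1185 and 1234 FPKM. NFYC, a subunit of the CCAAT-binding factor, averaged 527 ± 25.1 FPKM, the cartilage collagen COL9A2 425 ± 22.1, CITED4 347 ± 50.1 and the nuclear lamin protease ZMPSTE24 184 ± 9.16. COL9A2 was the highest of 44 collagens, of which 12 were expressed. Not every gene there was high. TMCO2 averaged 0.193 ± 0.178 FPKM from 5 counts, and EDN2, further along, had 0 counts.

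**Figure D3:**
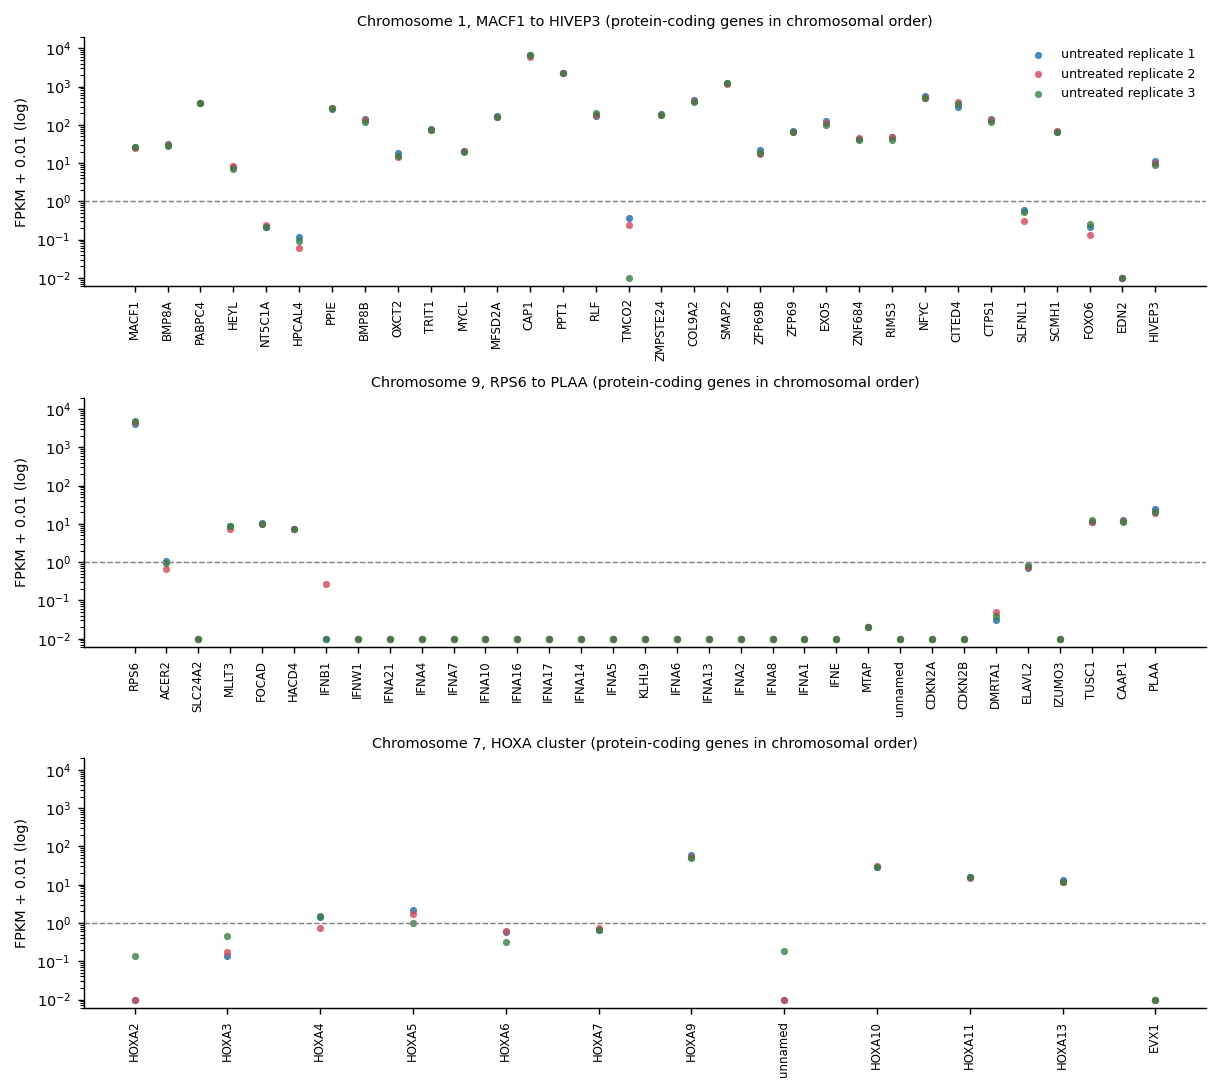
FPKM + 0.01 on a log axis for protein-coding genes in chromosomal order, with some genes not drawn, 1 point for each untreated library, dashed line at 1 FPKM. In the top panel CAP1 reaches 6384 FPKM with several neighbours above 100, in the middle panel the genes from IFNB1 to DMRTA1 lie at or near 0, with expressed genes directly to the left and, on the right, ELAVL2 (0.747) and IZUMO3 (0 counts) before TUSC1 (11.5), and in the bottom panel HOXA9, HOXA10, HOXA11 and HOXA13 lie at 12.3 to 55 FPKM and HOXA2 to HOXA7 have means below 2.

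Cytosolic DNA sensing was expressed in 22 of 25 members, with a median of 17.3 FPKM. CGAS, the enzyme that makes cyclic GMP-AMP on DNA, had 23.3, 21.3 and 23.1 FPKM. STING1, the receptor for cyclic dinucleotides, had 165, 170.2 and 157 FPKM, so the receptor stood above the enzyme in every library. Its partners TBK1 and IRF3 averaged 20.9 ± 1.88 and 51.4 ± 1.34 FPKM. IFI16 averaged 8.58 ± 0.085 FPKM, and TREX1, the nuclease that clears cytosolic DNA, 17.2 ± 0.519. SAMHD1, which hydrolyses dNTPs, averaged 71.2 ± 8.14 FPKM. The 3 silent members were AIM2, the DNA sensor of an inflammasome (0.0533 ± 0.0058 FPKM, 4 counts), ENPP1, which degrades extracellular cGAMP (0.04 ± 0.03), and ZBP1, a sensor of Z-form nucleic acids (0.02 ± 0.0173). Transporters for cyclic dinucleotides were present: SLC19A1 averaged 11.3 ± 1.36 FPKM, LRRC8A 5.56 ± 0.251 and ABCC1, which exports them, 17.3 ± 0.27.

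RNA sensors were expressed in 17 of 19 members but at lower levels, with a median of 6.65 FPKM. IFIH1 (MDA5) had 7.33, 5.22 and 6.35 FPKM, RIGI 1.75, 2.01 and 2.33 and their adaptor MAVS 7.03, 6.76 and 6.15. ADAR, which edits double-stranded RNA, was the highest at 82.4 ± 5.78 FPKM.

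Of the 10 Toll-like receptors, TLR2, for bacterial lipopeptides, was far ahead at 48.5, 42.4 and 46.8 FPKM. TLR4, for lipopolysaccharide, had 4.58, 3.46 and 4.25 FPKM, and TLR1 and TLR6, the partners of TLR2, 3.43, 2.17 and 2.54 and 1.76, 1.56 and 1.69. These 4 were the only Toll-like receptors to reach 1 FPKM in each library. TLR8 averaged 0.607 ± 0.168 FPKM, TLR9 0.423 ± 0.0351, TLR5 0.217 ± 0.0321, TLR7 0.147 ± 0.0751, TLR10 0.0867 ± 0.107 and TLR3 0.0467 ± 0.0208. The ranges of TLR8, TLR9 and TLR5 over the libraries did not overlap, whereas that of TLR5 overlapped with TLR7, TLR7 with TLR10, and TLR10 with TLR3. MYD88, the main adaptor, averaged 11.6 ± 0.998 FPKM and TICAM1 (TRIF) 5.6 ± 0.402. LY96 (MD-2), which TLR4 needs to bind its ligand, averaged 2.42 ± 0.361 FPKM.

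Inflammasome parts were expressed in 23 of 30 members. NLRP3 averaged 28.4 ± 1.26 FPKM, the adaptor PYCARD (ASC) 108 ± 8.2, CASP1 27.5 ± 1.91, CASP4 53.2 ± 1.06 and the pore-forming GSDMD 36.4 ± 2.77. NLRC4 was lower at 2.83 ± 0.205 FPKM, and NLRP1, at 0.9, 1.27 and 1.03, was trace. Of the products, IL18 averaged 21.9 ± 2.32 FPKM and IL1B had 25.7, 15.1 and 15.1, while IL1A was silent with 6 counts.

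Interferon genes had almost no counts. All 21 were silent and 20 had 0 counts, while IFNB1 had 3 counts, all in replicate 2. IFNB1 and the IFNA genes lie in the silent stretch of chromosome 9 described above, where gene copy number was not measured. A count of 0 in a library allows up to 3 counts, for counting error only. The receptors were present, IFNAR1 at 29.5 ± 1.03 FPKM, IFNAR2 at 46.7 ± 3.19, IFNGR1 at 55.9 ± 3.31 and IFNGR2 at 49.4 ± 3.25, except IFNLR1, the specific chain for type III interferon, at 0.17 ± 0.052. STAT2 averaged 26.7 ± 2.23 FPKM and IRF9 16.4 ± 2.57, and IRF7, which amplifies the response, 9.02 ± 1.51.

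Interferon-stimulated genes were expressed at rest in 34 of 45 members, with a median of 5.97 FPKM. The membrane proteins IFITM3, BST2, IFITM2 and IFITM1, which hinder virus entry or release, led at 148 ± 7.13, 137 ± 9.75, 132 ± 7.72 and 114 ± 3.29 FPKM. ISG15, a ubiquitin-like modifier, had 15.9, 20.3 and 18.6 FPKM and the GTPase MX1 2.31, 1.95 and 2.16. IFIT1, by contrast, was trace at 0.81, 0.41 and 0.58 FPKM and CXCL10 at 0.85, 0.11 and 0.17, and CXCL9 had 0 counts. All 16 NF-kB subunits and inhibitors were expressed, with RELA at 33.6 ± 2.44 FPKM and the inhibitor NFKBIA at 56.6, 41.8 and 47.8.

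**Figure D4:**
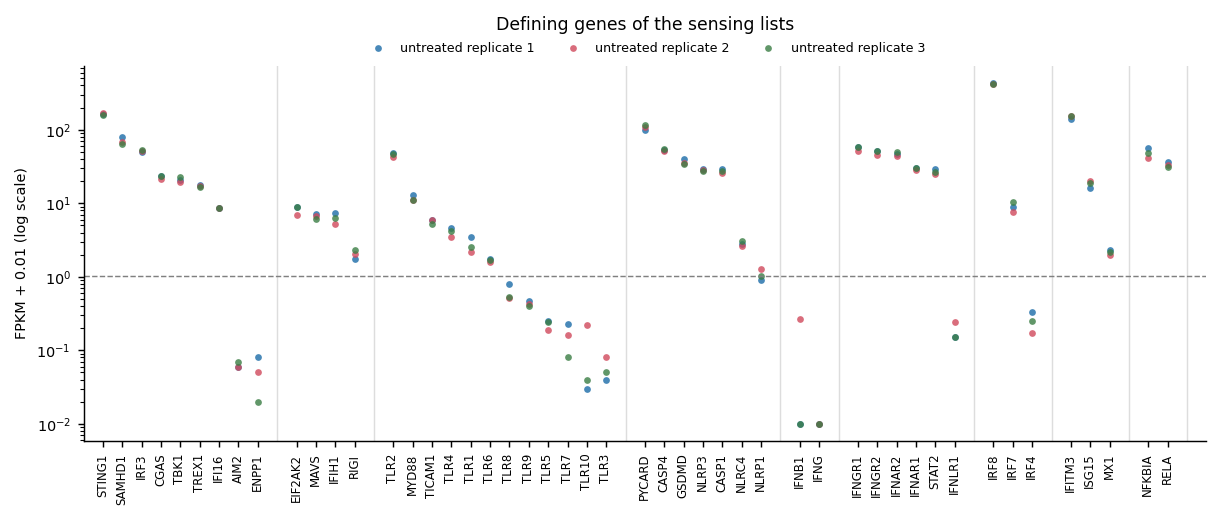
FPKM + 0.01 on a log axis for defining genes of the sensing lists, ordered by mean within each list, 1 point for each untreated library, dashed line at 1 FPKM. STING1 (164 FPKM) and TLR2 (45.9 FPKM) stand well above 1, whereas the means of AIM2, ENPP1, IFNB1 and IFNG lie below 0.1, with IFNB1 above that in replicate 2.

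Cell-surface receptor lists differed in their expressed share, against 55.9% of all protein-coding genes. It was 32.3% for chemokine and chemoattractant receptors, 30.4% for receptor tyrosine kinases and 53.8% for integrins. For cytokine and growth factor receptors it was 62.2%, and for the Fc, complement, LILR, SIGLEC and TREM list 78.9%. Of 31 chemokine and chemoattractant receptors 10 were expressed: CXCR4, which retains cells in bone marrow, had 222, 230.2 and 273 FPKM, CCR1 51.6, 53.6 and 59.9 and CCR2 53, 49.4 and 49.2. CX3CR1 averaged 9 ± 0.845 FPKM, and C5AR1 3.92 ± 0.138. The formyl peptide receptor FPR1 was trace at 1.17, 0.91 and 0.99 FPKM. CCR7, a receptor of mature dendritic cells, averaged 0.0767 ± 0.0404 FPKM from 5 counts. Receptors for cytokines and growth factors were expressed in 28 of 45, led by IL10RB (103 ± 2.07 FPKM) and IL6R (69 ± 3.99 FPKM). Both TNF receptors were on, TNFRSF1B at 49.6 ± 2.39 and TNFRSF1A at 34.2 ± 1.39 FPKM.

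Fc, complement, LILR, SIGLEC and TREM receptors were expressed in 30 of 38 members. LILRB4 averaged 83.5 ± 1.95 FPKM, TREM2, a lipid receptor of macrophages, 31.8 ± 2.33, and TREM1 6.92 ± 1.17. FCER1A, the alpha chain of the IgE receptor, had 0 counts even though FCER1G was so high. Fc gamma receptor genes have near-identical copies, so the split between them is uncertain. Of 26 integrins 14 were expressed, with ITGAL, the partner of ITGB2 in LFA-1, at 54.7 ± 0.248 FPKM, ITGA4 at 29.9 ± 2.27 and ITGAX at 26.2 ± 0.689.

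Receptor tyrosine kinases were expressed in 17 of 56. RET, a receptor for neurotrophic factors of the GDNF family, was the highest at 80.3, 80.2 and 76.6 FPKM, above CSF1R and FLT3 in every library. RYK averaged 15.7 ± 0.316 FPKM and the insulin receptor INSR 11.3 ± 1.03, whereas KIT was trace at 0.73 ± 0.148 and EGFR at 0.253 ± 0.0416. Nuclear receptors were expressed in 21 of 48: RXRA averaged 42.6 ± 1.05 FPKM, RARA 18.8 ± 0.426, PPARG 16.2 ± 1.21, the glucocorticoid receptor NR3C1 11.9 ± 0.731 and VDR, the vitamin D receptor, 4.95 ± 0.367. The estrogen receptor ESR1 averaged 0.0233 ± 0.0115 FPKM.

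Secreted factors were expressed less often than the 55.9% of all protein-coding genes, at 33.3% of cytokines and 30.8% of chemokines. Silent members numbered 19 and 15, and the rest were trace. Of 42 cytokines 14 were expressed, with a list median of 0.117 FPKM. MIF led at 689, 771 and 814 FPKM, followed by VEGFA at 89.3 ± 2.14 and TNF at 42, 53.1 and 66. TGFB1 averaged 37.6 ± 2.01 FPKM. IL6 had 1 count, IL10 4.18, and IL12B 0. Of 39 chemokines 12 were expressed: CCL5 had 94.5, 95.7 and 103 FPKM, CXCL8 (interleukin-8) 86.2, 54.3 and 86.7, CCL3 30, 41.7 and 66.4 and CCL2 18.2, 14.7 and 18.

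MHC class I genes were expressed in 19 of 20, with HLA-B at 655 ± 10.8 and HLA-C at 146 ± 4.5 FPKM. Of MHC class II genes 10 of 18 were expressed, or 55.6%, close to the 55.9% of all protein-coding genes. CD74, the invariant chain, averaged 154 ± 3.95 FPKM and HLA-DRB1 103 ± 6.73, but HLA-DRA, its obligate partner, had 6.47, 6.24 and 5.69 FPKM and the master activator CIITA 0.54, 0.69 and 0.8. HLA genes differ between people and share sequence, so a mismatch to the reference could alter their counts; this was not tested.

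Metallothioneins, small proteins that bind zinc and copper, were on without treatment: MT2A had 173, 216 and 204 FPKM, MT1E 82, 105 and 100.3, MT1F 73.6, 79.5 and 87.4, MT1X 73.4, 82.1 and 81.3 and MT1G 32.9, 43.6 and 49.8, while MT1B and MT1H had 0 counts. These copies are alike and may share reads. Their activator MTF1 averaged 8.89 ± 0.448 FPKM and the zinc exporter SLC30A1 7.53 ± 0.501. Over the list of metallothioneins and zinc transporters 22 of 36 were expressed and 11 were silent. The expressed share, 61.1%, was close to the 55.9% of all protein-coding genes. Iron and copper genes were expressed in 19 of 23, with FTL at 6564, 7102 and 7585 and FTH1 at 1949, 1621 and 1906 FPKM, the transferrin receptor TFRC at 19.9 ± 1.26, haem oxygenase HMOX1 at 14.5 ± 1.26 and the copper chaperone ATOX1 at 69.7 ± 4.09.

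Glycolytic genes were among the highest of the metabolic lists, 24 of 31 expressed with a median of 85.2 FPKM. GAPDH averaged 2231 ± 86.2 FPKM, ALDOA 1857 ± 117, LDHA 1606 ± 163 and ENO1 1495 ± 42, and the glucose transporter SLC2A1 553 ± 49.5. The 7 silent members were forms known mainly from liver, muscle or testis, such as PKLR (0.08 ± 0.0854 FPKM) and PGK2 (0 counts). Antioxidant genes were expressed in 22 of 23, with GPX1 at 1093 ± 107, PRDX1 at 373 ± 11.2 and TXN at 326 ± 6.74 FPKM, and the cystine transporter SLC7A11 the exception at 0.96, 0.97 and 0.75. Of 34 cytochrome P450 enzymes 6 were expressed, led by CYP51A1, which serves cholesterol synthesis, at 59.6 ± 5.54 FPKM; CYP3A4, the main drug-metabolising form of liver, had 0 counts. Caspases and death genes were expressed in 20 of 23, including RIPK3 (9.03 ± 0.543 FPKM) and MLKL (6.64 ± 1 FPKM) of the necroptosis pathway.

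**Figure D5:**
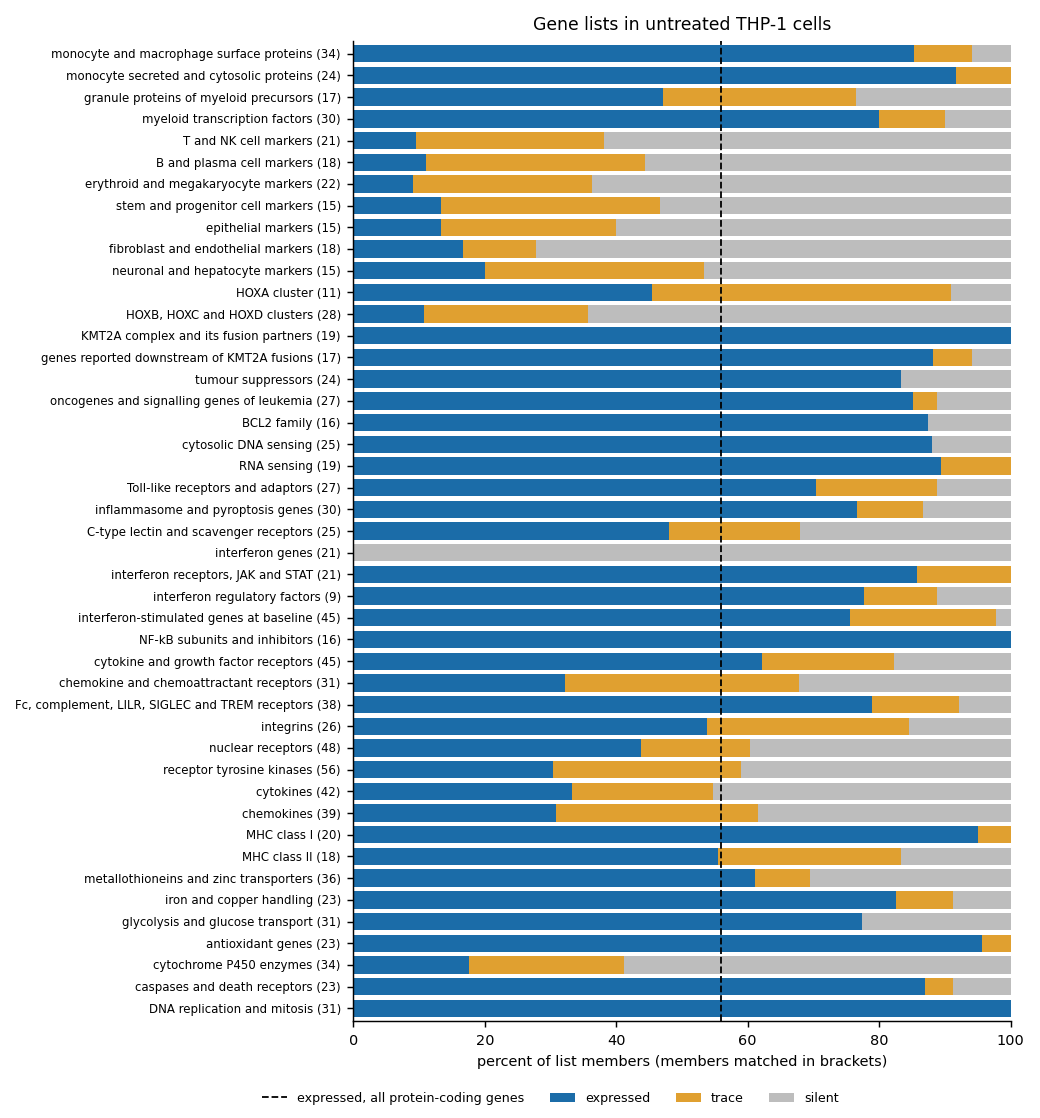
Percent of members that were expressed, trace or silent in each of the 45 lists, with the number of members matched in brackets; the dashed line marks the 55.9% of all protein-coding genes that were expressed. The KMT2A, NF-kB and replication lists are expressed throughout, the interferon genes are all silent, and the non-myeloid lineage lists stay at or below 20%.

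Whole families showed the same contrast. All 78 mitochondrial ribosomal proteins, 37 of 39 proteasome subunits and 80 of 87 nuclear respiratory chain subunits were expressed, with medians of 42.1, 86.4 and 143 FPKM. By contrast 1 of 381 olfactory receptors, 0 of 27 taste receptors, 1 of 55 keratins (KRT10, 9.09 ± 0.894 FPKM), 0 of 94 keratin-associated proteins and 1 of 45 defensins (DEFB1, 14.6 ± 2.14 FPKM) were expressed. Zinc finger ZNF genes were expressed in 380 of 509 members at a median of only 3.28 FPKM. Histone genes were expressed in 16 of 87 members and trace in 42. The variants H2AZ1 (656 ± 31 FPKM) and H3-3A (631 ± 23.5), whose mRNAs carry poly(A) tails, were highest. Libraries were made by oligo(dT) selection, which captures histone mRNAs without a tail poorly. Its effect on these levels was not tested. Over chromosomes 1 to 22 and X, the expressed share of protein-coding genes ran between 43.5% on X and 64.1% on chromosome 16.

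The 3 libraries lay close together. Over the 13022 expressed entries, Pearson's r of log2(FPKM + 1) was 0.992, 0.992 and 0.993 for the 3 pairs, a description across genes, which are not independent. The median CV between libraries was 8.13%. It fell with level, from 35.0% for protein-coding genes of 0.1 to 1 FPKM to 10.8% at 1 to 10, 6.42% at 10 to 100 and 4.85% at 100 to 1000, but was 7.23% above that. Over 14147 genes with at least 60 counts, the mean chi-square of the counts per gene was 5.64, 8.43 and 5.22 for the pairs. Sampling noise alone gives about 1, so by this mean no 2 libraries agree within sampling noise. Genes with many counts can weigh most in the mean, so it does not describe a typical gene.

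Some genes varied far more. Of 9045 entries with a mean of 5 FPKM and 100 counts or more, 47 had an FPKM CV above 30%. In 27 of these the counts themselves varied by less than 15%. BARD1, the partner of BRCA1, had 15.4, 6.47 and 7.44 FPKM from 575, 552 and 583 counts, and SIPA1L3, AMMECR1L, LCOR and SLC15A2 were also of this kind. USP13, a deubiquitinase with the largest FPKM CV, had 11.2, 5.15 and 62.2 FPKM from 381, 302 and 287 counts, a count CV of 15.8% that lay just above that limit. For these genes the effective length that FPKM and counts imply differed between libraries: for USP13 it was 1806, 3095 and 243 bases.

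In 14 entries both FPKM and counts varied by more than 30%. EGR1, an immediate-early factor, had 50.5, 83.7 and 113 FPKM from 2769, 4594 and 6231 counts, and FOS 122, 156 and 228 FPKM from 3480.0, 4504 and 6850.0 counts. The phosphatase DUSP1 had 7.03, 7.55 and 12.1 FPKM, RGS2 6.06, 5.6 and 10.4 and the chemokine CCL3 30, 41.7 and 66.4. Each of these was highest in replicate 3. MMP9, a matrix protease, had 8.22, 4.2 and 4.24 FPKM, IL1B 25.7, 15.1 and 15.1 and SOD2, the mitochondrial superoxide dismutase, 58.6, 34.5 and 36.9. Each of these was highest in replicate 1. These 8 genes were chosen with their values in view, EGR1, CCL3 and MMP9 being also among the 15 with the largest CV.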

How the data were processed

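Gene-level tables of FPKM and of estimated counts were used for the 3 untreated control libraries of THP-1 cells. Both the FPKM values and the estimated counts are the authors' deposited values. The submitters' processing notes name RSEM, GRCh38 and DESeq2 1.26.0 without saying which step used which, and no DESeq2 output was used here. RSEM's version, the annotation release and the strand setting are not given in the sources used here. Per the labels' protocols, mRNA was selected with oligo(dT) beads and sequencing was done on a DNBSEQ machine of BGI. Of the estimated counts above 0, 44.0% were fractional, as from a counter such as RSEM that divides shared reads between genes. Depth was 18910085 to 19023005 estimated counts per library, and FPKM sums were 858887 to 889025. Every per-sample column is mapped (0 left out), and the 9 treated columns were not read.

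From these values, means, SDs, CVs, the 3 classes and summed shares were computed in Python 3.11.15 with pandas 2.3.3 and numpy 2.4.6. No test was run, since there is 1 condition. Symbols were matched for 62517 of 62914 entries, and types and positions come from GENCODE 29 on GRCh38 for 58167. Genes without a GENCODE 29 record are in no count of protein-coding genes. Class calls from FPKM can rest on few reads in short genes: 214 expressed entries, 8 of them protein-coding, had under 30 counts over the 3 libraries. Near-identical copies and overlapping genes on opposite strands may exchange reads. Promoters were read for 15262 protein-coding genes from RefSeq (GRCh38.p14), at the first start listed for a gene.

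The 45 lists (1085 genes) and 15 families, like the choice of the untreated libraries, were made with earlier results of these data known. 7 listed symbols were not matched by their own name and are not analysed here. Some genes that the rules below would name are not reported here. Genes were named by rule: the 20 highest entries, the 10 highest nuclear protein-coding genes without ribosomal proteins, the 4 highest and the defining members of each list, and the 15 largest CVs among entries with 5 FPKM and 100 counts or more on average. Further list members, and genes of the silent and high neighbourhoods, were chosen with their values in view. The alternatives were thresholds of 0.5 and 2 FPKM, the mean in place of every library, TPM, FPKM without mitochondrial genes, CPM from the counts, entries with a symbol only, 100 counts or more for the CV, and each library left out. The CVs and the dispersion index were tested on simulated data, whereas the class calls were not.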

Additional observations from a re-analysis of the deposited data

How the results depend on the processing

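The number of expressed entries was 13022 and lay between 11373 (2 FPKM) and 14608 (0.5 FPKM) over all alternatives. For protein-coding genes it was 11054, with 10173 to 11848. Shares of the total depended on the unit. The 10 highest genes held 13.5% of FPKM, 10.5% without mitochondrial genes, and 9.70% of counts, where another set of genes is highest. For the 100 highest genes these values were 47.4%, 42.5% and 26.5%. Ribosomal proteins held 25.8% of FPKM, 29.6% without mitochondrial genes and 9.31% of counts, and mitochondrial genes 12.8% of FPKM and 5.86% of counts. FPKM weights short transcripts more than counts do. The median CV of 8.13% became 8.78% at 0.5 FPKM, 7.45% at 2 FPKM, 6.83% for CPM and 7.26% with at least 100 counts, and 6.22% to 7.34% with a library left out, where only 2 libraries remain. The spread of these 3 values was the measure against which that CV was judged to move.

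Of the 60 list and family counts, 8 moved by over 1.5 times under some alternative. At 0.5 FPKM the HOXA cluster had 8 expressed members, the other HOX clusters 5 and olfactory receptors 3. At 2 FPKM the receptor tyrosine kinases had 10, potassium channels 5, and the erythroid and the neuronal lists 1 each. By CPM the B cell list had 4 and olfactory receptors 2. With each library left out, none moved that far. No paired analysis was possible because only 1 group was described. Depth limits the silent calls, which rest on few or no counts, and FPKM of very short transcripts such as MT-ATP8.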

Other observations

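Entries outside the annotation held some of the higher levels. Of 326 unannotated transcripts in the tables, 188 were expressed. The highest had 701, 492 and 489.8 FPKM in replicates 1, 2 and 3 from 6265, 4420 and 4407 counts. The next had 633, 352 and 348 FPKM from 15463, 8644 and 8555 counts. Both were highest in replicate 1. Their positions are not in the tables used here, so what they encode cannot be said.

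A protein-coding entry on chromosome 21 at 6484623 to 6499261 had 81.1 and 60.8 FPKM in replicates 1 and 2 and 0 in replicate 3. Its estimated counts, 1084.6, 815.31 and 0.04, are fractional, so its reads may be shared with another entry. Whether the division of reads made this difference was not tested. Among chemokines, CCL3L3, a near-identical copy of CCL3, had 41.1, 52.6 and 72.3 FPKM against 30, 41.7 and 66.4 for CCL3, both highest in replicate 3. DDX41, a helicase of the DNA sensing list, had 268, 178 and 214 FPKM from 2171, 2310.0 and 2209 counts.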
